A study of Mus musculus with 91 samples.

Results

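The miR-290-295 cluster is a group of mouse microRNA (miRNA) hairpins on chromosome 7 that are made from 1 long transcript. Its members were taken by name as 10 of the 1504 mature miRNA entries of the deposited count table: mmu-miR-290a-5p, mmu-miR-290a-3p, mmu-miR-291a-5p, mmu-miR-291a-3p, mmu-miR-292a-5p, mmu-miR-292a-3p, mmu-miR-293-3p, mmu-miR-294-3p, mmu-miR-295-5p and mmu-miR-295-3p. The species prefix is left out below. They are described here in all 91 libraries of the study, which fall into 26 groups. Of these libraries, 62 came from extraembryonic ectoderm (Exe, the trophoblast-lineage part of the egg cylinder) or epiblast (Epi, the part that forms the embryo proper), 11 from androgenetic haploid embryonic stem cells (AG-haESCs), and 18 from semi-cloned (SC) embryos, which are made by injecting an AG-haESC into an oocyte in place of a sperm.

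Exe and Epi were separated with a needle from embryos of C57BL/6 males and F1 females (by the study's methods, males carrying an Oct4-EGFP reporter and B6D2F1 females, whose parents are C57BL/6J and DBA2) at embryonic day 6.5 (E6.5) and E7.5. At each stage and in each tissue there were 4 genotypes. Control embryos were compared with embryos that had lost the maintenance DNA methyltransferase (Dnmt1-KO), the de novo enzymes (Dnmt3a/3b-DKO) or all of Dnmt1, Dnmt3a and Dnmt3b (Dnmt-null). The mutations were introduced in zygotes by a cytosine base editor and guide RNAs that create stop codons, so each embryo was edited on its own and the groups are not an inbred mutant line. Each of these groups had 4 libraries, except control and Dnmt-null E7.5 Epi with 3 each. The AG-haESCs, from C57BL/6, were grown with Lif and 2 kinase inhibitors; they are labelled WT (3 libraries), O48 (3 libraries), 408 (3 libraries) and Mir-6KO (2 libraries). The label O48 gives no genotype; the study's methods name O48 as the line transfected to delete miRNAs, and describe those deletions as made in DKO cells (explained below), which makes O48 a DKO line. What 408 carries is not given in the labels, so its values are shown without a test. SC embryos at E6.5 fell into 4 groups: WT, DKO, Dnmt-null (Dnmt-TKO in the labels, for the triple loss) and DKO;Dnmt-null. Here DKO means cells without the H19 and IG differentially methylated regions, 2 regulators of imprinted genes. SC embryos at E7.5 were a control from DKO cells and Mir-6KO;Dnmt-null embryos, in which 6 further miRNA deletions and loss of the 3 Dnmts were added to the same DKO background. All SC groups had 3 libraries; their labels name the whole embryo, while the study describes the E6.5 SC samples as epiblast.

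As background, a miRNA guides an Argonaute protein to messenger RNAs that pair with its seed, bases 2 to 8 from its 5′ end, and lowers their output. The miR-290-295 miRNAs are the dominant miRNAs of mouse embryonic stem cells in the naive state; they promote rapid passage from G1 to S phase and dampen differentiation signals, and they are also expressed in the trophoblast lineage. On the way to the primed state of the postimplantation epiblast, the miR-302/367 cluster, several of whose miRNAs carry the same seed as some miR-290-295 miRNAs, is switched on.

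In GRCm38 the 7 plus-strand hairpins of the locus lie within 2216 bp of chromosome 7, from 3218626 to 3220841, and 6 of them give the members. Mir290a is at 3218626 to 3218708, Mir291a at 3218919 to 3219000, Mir292 at 3219189 to 3219270, Mir293 at 3220343 to 3220422, Mir294 at 3220641 to 3220724 and Mir295 at 3220773 to 3220841. Mir290a is outside any annotated exon of the neighbouring gene Nlrp12, which is on the minus strand from 3218784 to 3249740. Mir291a, Mir292, Mir293, Mir294 and Mir295 each overlap an annotated exon of Nlrp12, on the opposite strand. The mature sequences of 9 members were found in RefSeq (GRCm38.p6), and they are shown because the seed decides which members share targets. They are printed 5′ to 3′ with the seed in capitals.
miR-291a-3p: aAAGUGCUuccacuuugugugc
miR-294-3p: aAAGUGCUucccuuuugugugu
miR-295-3p: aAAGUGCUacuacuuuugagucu
miR-290a-3p: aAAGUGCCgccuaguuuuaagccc
miR-293-3p: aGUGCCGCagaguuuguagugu
miR-290a-5p: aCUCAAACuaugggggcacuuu
miR-292a-5p: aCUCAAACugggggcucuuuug
miR-295-5p: aCUCAAAUguggggcacacuuc
miR-291a-5p: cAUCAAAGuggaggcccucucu
These 9 sequences held 6 different seeds. The seed AAGUGCU was shared by miR-291a-3p, miR-294-3p and miR-295-3p, and CUCAAAC by miR-290a-5p and miR-292a-5p. The hairpin of Mir290a shows how a pair of members, its 5p and 3p arms, comes from the same stem; the arms are in capitals.
Mir290a hairpin: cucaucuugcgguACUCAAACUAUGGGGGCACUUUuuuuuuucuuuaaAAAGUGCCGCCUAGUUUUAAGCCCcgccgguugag

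The table also lists Mir290b and Mir292b, hairpins annotated on the opposite strand at the same place, and the counts of their miRNAs were nearly copies of 4 members. The entry miR-290b-5p equalled miR-290a-3p in 91 of 91 libraries, miR-292b-5p equalled miR-292a-3p in 87, miR-292b-3p equalled miR-292a-5p in 85, and miR-290b-3p equalled miR-290a-5p in 82. The largest difference was 27 counts, or 0.529%, for the miR-290a-5p pair, and 36 counts, or 0.0609%, for the miR-292a-5p pair. The same reads were thus counted for both strands, and for these 4 members the strands cannot be told apart. The mature miR-290b-3p is shown for this overlap, since 21 of its positions pair with miR-290a-5p.
miR-290b-3p: aAGUGCCCccauaguuugagua

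Levels are given as CPM, counts scaled to an equal total of miRNA counts in every library. They are not scaled by length, since 1 read spans a whole mature miRNA, and differences between members also hold the preferences of adapter ligation. Library totals ran from 45242 to 600821 counts at E6.5, from 266379 to 2394918 at E7.5, from 3813865 to 16501907 in AG-haESCs and from 154061 to 26970637 in SC embryos. A count of 3, taken as the limit of detection, was worth 0.111 to 66.3 CPM. Of the members, miR-290a-3p had a count of 0 in 8 libraries and miR-291a-3p in 2; the other 8 members were detected in all 91. Epi was marked by the summed miR-302/367 markers, 130389 to 200354 CPM in E6.5 control Epi against 17588 to 30822 CPM in E6.5 control Exe. Nothing in the labels says that the samples of a group came from separate embryos, so p-values measure only the spread between these samples.

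Some libraries stood apart. The 2 AG-haESC libraries labelled Mir-6KO held 239331 and 268002 CPM of the epiblast markers, against 924 to 3914 CPM in the 9 other AG-haESC libraries and 202279 to 212606 CPM in E7.5 control Epi. They are called the libraries labelled Mir-6KO throughout, and no direction is drawn from them. SC E6.5 WT replicate 3 held 21252 CPM of these markers, against 214514 and 195381 CPM in the other 2 WT libraries, and its cluster share was the lowest of all libraries at 1.70%. E6.5 Epi Dnmt-null replicate 1 was the shallowest library, with 45242 counts. E6.5 Exe Dnmt1-KO replicate 4 held 6049 CPM of blood markers, against 0 to 13.8 CPM in the other libraries of its group. Its mesenchyme or decidua markers were at 2533 CPM, against 92.1 to 265, and its epiblast markers at 5617 CPM, against 26048 to 27857. With any 1 library left out, 0 members passed for Dnmt1-KO in E6.5 Exe. The main results that rest on the libraries in this paragraph are given with and without them.

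Summed, the 10 members took 29.2% ± 2.66 of all miRNA counts in O48 AG-haESCs, 24.8% ± 0.0492 in 408 and 24.3% ± 0.363 in WT cells (mean ± SD, n = 3 each). Among natural controls, E6.5 Exe was highest with 21.1% ± 3.67 (n = 4), followed by E6.5 Epi with 14.8% ± 0.701 (n = 4) and E7.5 Exe with 13.1% ± 1.38 (n = 4). Natural E7.5 control Epi, with 4.25% ± 0.0672 (n = 3), and SC E7.5 control, with 4.07% ± 0.276 (n = 3), stood at the low end. Below them were the libraries labelled Mir-6KO, with 2.46% and 3.23%. Of the 25 pairs of neighbours in the order of group means, 21 overlapped in range. The 4 gaps lay between O48 and 408, between 408 and WT AG-haESCs, between WT AG-haESCs and E6.5 control Exe, and between SC E7.5 control and the libraries labelled Mir-6KO.

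**Figure D1:**
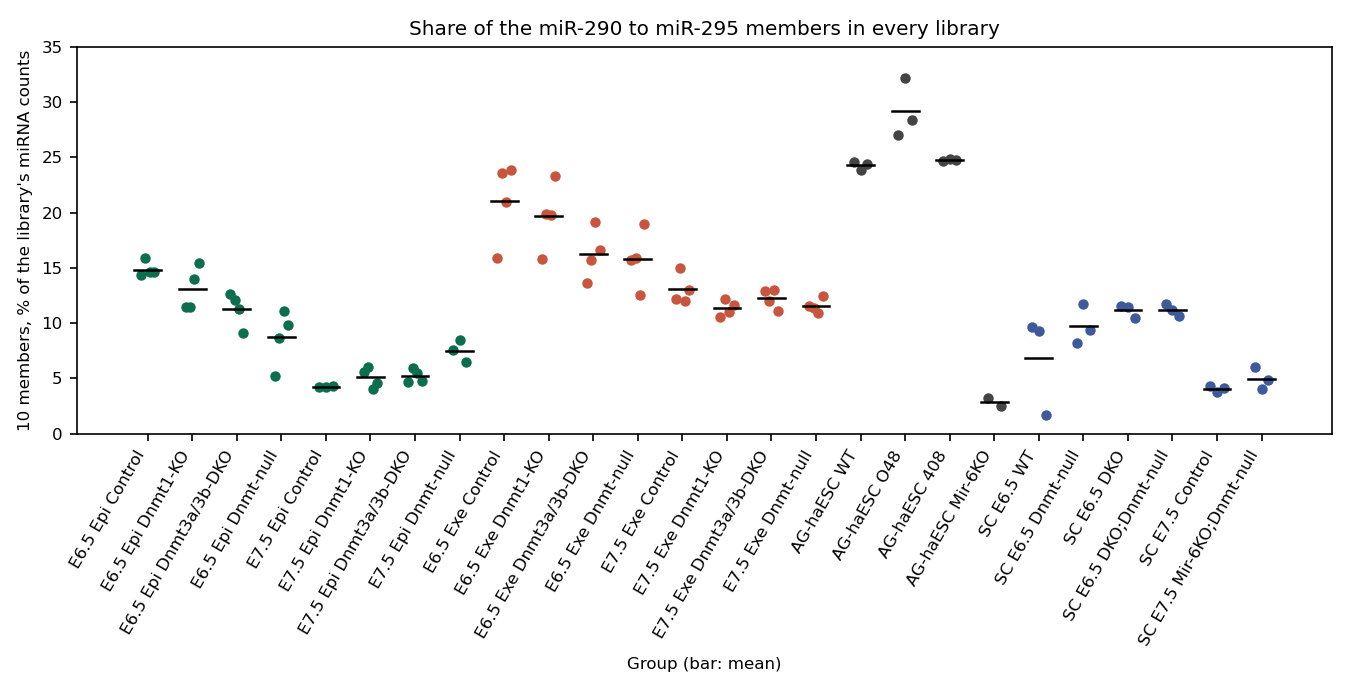
Percent of each library's miRNA counts taken by the 10 members (y axis), by group (x axis); points are libraries and bars group means. AG-haESCs other than those labelled Mir-6KO lie between 23.9 and 32.2%, and E7.5 control Epi lies between 4.21 and 4.33%.

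In control Epi, every member was lower at E7.5 than at E6.5. The guide miR-295-3p, the most abundant AAGUGCU member, stood at 56307, 58601, 55191 and 53490 CPM at E6.5 and at 13954, 13956 and 13703 CPM at E7.5. The ranges were far apart, and the log2 fold change was -1.98 ± 0.15 (SE; adjusted p 4.22e-08 in edgeR's quasi-likelihood test, here and below with Benjamini-Hochberg adjustment over all miRNAs tested). All 10 members passed the test as lower, against 17% of the 558 miRNAs tested called lower and 26.9% called in either direction, and the E6.5 and E7.5 libraries did not overlap for any member, which was so for 42.7% of all miRNAs tested. The members' median log2 fold change was -2.15, beside -0.13 over all miRNAs tested. The largest falls were those of miR-294-3p (-3.14 ± 0.37, adjusted p 5.26e-06), miR-290a-3p (-3.05 ± 0.59, adjusted p 0.000564) and miR-292a-5p (-2.79 ± 0.26, adjusted p 3.25e-07), and the smallest was that of miR-293-3p (-1.30 ± 0.18, adjusted p 2.68e-05). miR-292a-5p went from 9389, 12833, 15243 and 13743 CPM to 1812, 1879 and 1762 CPM. In bulk samples, fewer cells that express a miRNA and less of it per cell cannot be told apart.

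Marker miRNAs of the trophoblast moved with this fall. The trophoblast list (6 miRNAs of the Sfmbt2 cluster family, 5 of them tested) had 4 lower at E7.5, and its sum went from 4749-21685 CPM at E6.5 to 1478-1937 CPM at E7.5, while none of the 5 epiblast markers passed the test. The part of other cells in the result was not tested. Of the other lists, 2 of 4 endoderm markers were lower at E7.5 and 1 of the 3 tested mesenchyme or decidua markers was higher, the sum of the latter being 55.9 to 107 CPM at E6.5 and 232 to 396 CPM at E7.5. None of the 2 blood markers tested passed.

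In control Exe the fall with stage was smaller. miR-295-3p stood at 62691, 91897, 79958 and 87920 CPM at E6.5 and at 41585, 50329, 39568 and 45887 CPM at E7.5, which did not overlap (-0.84 ± 0.13, adjusted p 0.0002). Together, 6 of the 10 members passed as lower, against 4.3% of all miRNAs tested called lower and 14.3% called in either direction, and the members' median was -0.80, beside 0.08 over all. The others that passed were miR-294-3p (-1.32 ± 0.31, adjusted p 0.00701), miR-292a-5p (-0.97 ± 0.22, adjusted p 0.00481), miR-295-5p (-0.80 ± 0.20, adjusted p 0.0113), miR-292a-3p (-0.79 ± 0.24, adjusted p 0.036) and miR-291a-5p (-0.59 ± 0.14, adjusted p 0.00669). Beside this fall, 3 of 5 epiblast markers were higher at E7.5, their sum going from 17588-30822 to 33368-45944 CPM, and of 3 mesenchyme or decidua markers 2 were higher and 1 lower; none of the 5 trophoblast markers tested passed. The part of these cells was not tested.

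At E6.5 the control tissues differed for 2 members. miR-291a-5p, a 5p-arm member with a seed of its own, stood at 36471, 48261, 41991 and 48745 CPM in Exe and 26376, 28176, 21737 and 23727 CPM in Epi (0.74 ± 0.14 higher in Exe, adjusted p 0.000596). miR-295-3p was higher in Exe by 0.45 ± 0.13 (adjusted p 0.0118). Of all miRNAs tested, 29.4% were called in this comparison and 14% were higher in Exe, so the share of members called was close to the background. The count was 5 without E6.5 Exe control replicate 1 and 1 without replicate 3 or without replicate 4 of that group.

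At E7.5 every member was at a higher level in all Exe libraries than in all Epi libraries; 47.3% of all miRNAs tested did not overlap between the tissues, in either direction. Here 9 of 10 members passed the test as higher in Exe, against 22.2% of all miRNAs tested called higher and 33.2% called in either direction; miR-291a-3p, a low member, was higher by 1.29 ± 0.70 (adjusted p 0.181). The members' median log2 difference was 1.56, beside 0.00 over all miRNAs tested, and -0.14 over all with DESeq2-style size factors, where the members' median was 1.41. The largest differences that passed were those of miR-290a-3p (2.74 ± 0.58, adjusted p 0.00101), miR-295-5p (1.74 ± 0.23, adjusted p 9.26e-06), miR-291a-5p (1.73 ± 0.16, adjusted p 2.93e-07), miR-292a-5p (1.65 ± 0.24, adjusted p 2.46e-05) and miR-295-3p (1.59 ± 0.14, adjusted p 2.93e-07). miR-290a-3p rested on low values, 178, 127, 116 and 122 CPM in Exe against 26.2, 20.2 and 10.5 CPM in Epi. These comparisons share their control libraries.

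The change in the tissue difference between stages was tested itself. It was larger at E7.5 for 9 of 10 members, all but miR-291a-3p, with estimates of 0.87 to 2.36 on the log2 scale, against 13.4% of all miRNAs called in this test and 11.3% called as larger at E7.5. The members' median was 1.30 and that of all miRNAs 0.61. Size factors of the DESeq2 kind put these at 1.16 and 0.47. The count was 4 without E7.5 Exe control replicate 1, and 2 without E7.5 Epi control replicate 2 or without replicate 3 of that group. Beside this, the trophoblast sum of controls at E6.5 was 29464 to 55979 CPM in Exe and 4749 to 21685 CPM in Epi. At E7.5 it was 30652 to 40480 CPM in Exe and 1478 to 1937 CPM in Epi. The part of other cells was not tested.

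**Figure D2:**
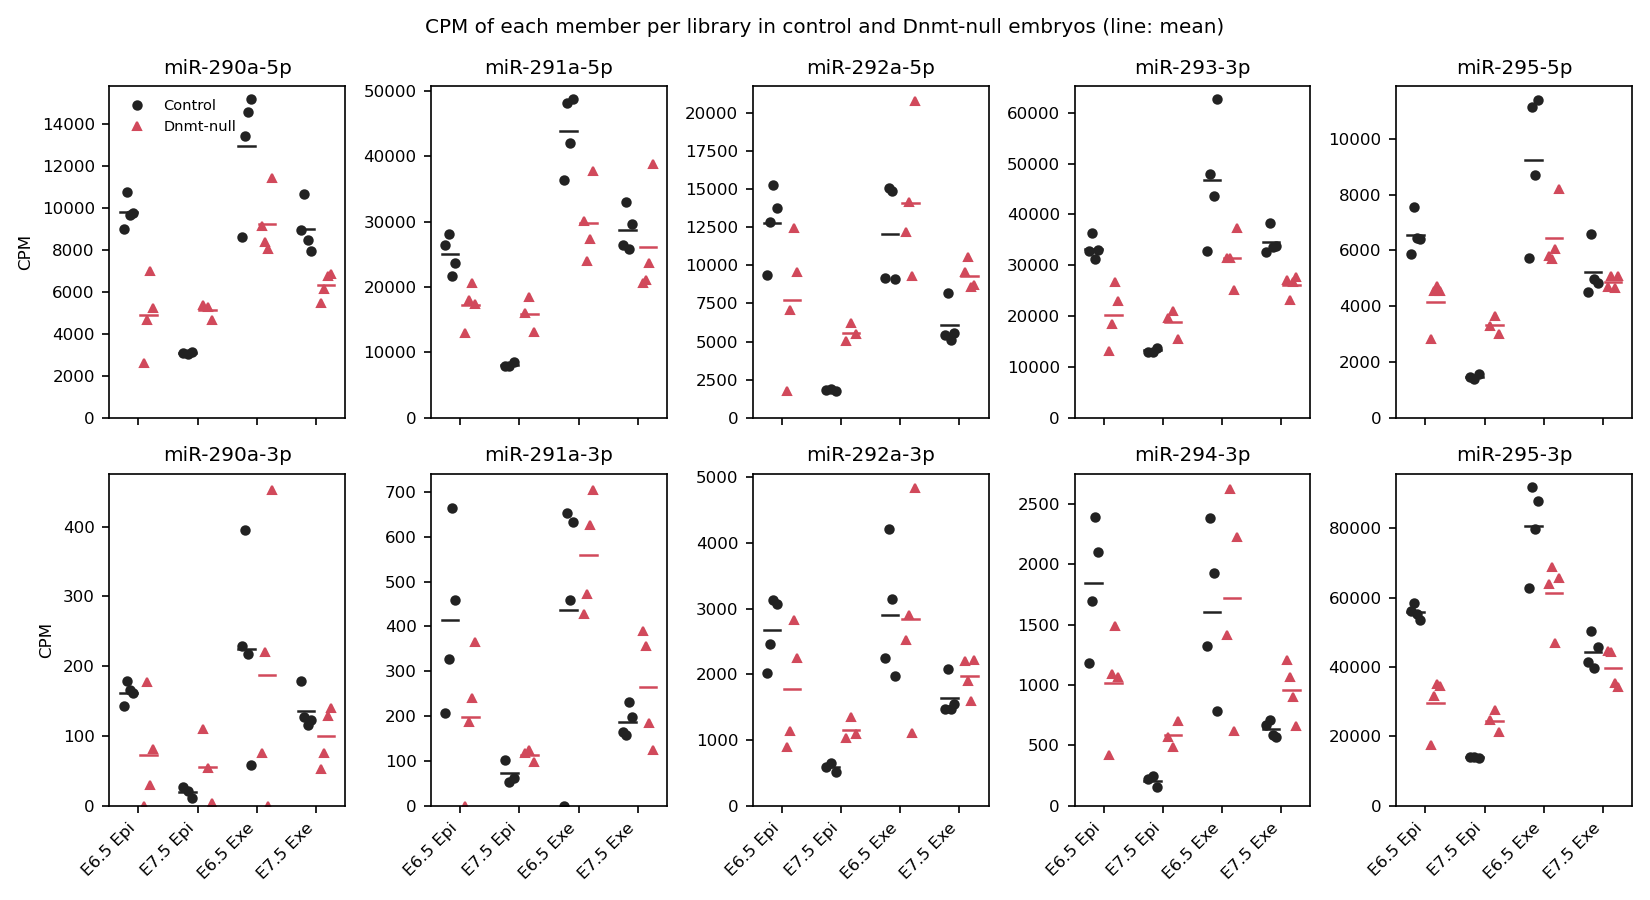
CPM (y axis, linear, from 0) of each member in every control library (black circles) and Dnmt-null library (red triangles) of Epi and Exe at both stages; short lines are group means. In control Epi all members lie lower at E7.5 than at E6.5, as for miR-295-3p at 53490 to 58601 against 13703 to 13956 CPM, while the Dnmt-null libraries of Epi overlap between the stages for every member.

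Loss of Dnmt1 alone or of Dnmt3a and Dnmt3b together brought no member past the threshold in either tissue at either stage. For Dnmt1-KO against control, 0% of all miRNAs were called in Exe at E6.5 and 5.03% at E7.5, and 0.733% in Epi at E6.5 and 16.3% at E7.5. At an unadjusted p under 0.05 there were 0 members at E6.5 in both tissues, and at E7.5 there was 1 in Exe and 1 in Epi, where 18.4% and 28.5% of all miRNAs were past the same limit. For Dnmt3a/3b-DKO against control, 0.532% of all miRNAs were called in Exe at E6.5 and 3.02% at E7.5, and 3.42% in Epi at E6.5 and 7.67% at E7.5. At an unadjusted p under 0.05 there were 5 members in Exe at E6.5 (9.04% of all miRNAs) and 1 at E7.5 (9.38%), and 2 in Epi at E6.5 (15.4%) and 4 at E7.5 (20.9%). DESeq2 called 0 members in all 8 comparisons. Without E6.5 Exe control replicate 1, edgeR called 1 member in Dnmt3a/3b-DKO E6.5 Exe, and without Dnmt1-KO replicate 3 it called 1 in Dnmt1-KO E7.5 Epi. In E6.5 Exe, where the 5 were all lower in Dnmt3a/3b-DKO, miR-290a-5p had the estimate farthest below 0 among them (-0.75 ± 0.23, adjusted p 0.173), from 8593, 13437, 14563 and 15183 CPM in control and 7576, 8595, 10042 and 8444 CPM in Dnmt3a/3b-DKO. In E7.5 Epi the 4 were all higher, with miR-292a-5p at 1812, 1879 and 1762 CPM in control and 3657, 2828, 2474 and 2382 CPM in Dnmt3a/3b-DKO (0.56 ± 0.19, adjusted p 0.0763); these libraries did not overlap, but the difference did not pass.

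In Dnmt-null E6.5 Epi, 5 members were lower than in control. miR-295-3p stood at 17484, 31662, 35001 and 34652 CPM against 56307, 58601, 55191 and 53490 CPM in control, with no overlap (-1.04 ± 0.18, adjusted p 0.000513). The CUCAAAC member miR-290a-5p fell most (-1.14 ± 0.26, adjusted p 0.0043). The others were miR-293-3p (-0.84 ± 0.19, adjusted p 0.00379), miR-295-5p (-0.79 ± 0.23, adjusted p 0.0252) and miR-291a-5p (-0.66 ± 0.18, adjusted p 0.0159). The background was 4.65% of 409 miRNAs called lower and 13% called in either direction; the members' median was -0.94, beside -0.14 over all. miR-292a-5p, at 1768, 7073, 12422 and 9556 CPM in Dnmt-null, overlapped control and did not pass (-0.88 ± 0.43, adjusted p 0.198). Without Dnmt-null replicate 1, the shallowest library and the lowest in all 5, all 5 passed again, with miR-295-3p at -0.82 ± 0.13 and miR-290a-5p at -0.90 ± 0.19. Without E6.5 Epi control replicate 2 the count was 3. The 5 epiblast markers all fell too, their sum being 48473 to 100114 CPM in Dnmt-null and 130389 to 200354 CPM in control, and the trophoblast sum overlapped, at 5034 to 12068 against 4749 to 21685 CPM; the part of a change in cell make-up was not tested.

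In Dnmt-null E7.5 Epi the direction was the opposite, with 7 members higher than in control. miR-292a-5p stood at 5035, 6216 and 5473 CPM in Dnmt-null and at 1812, 1879 and 1762 CPM in control (1.38 ± 0.20, adjusted p 6.32e-05). miR-294-3p, of the AAGUGCU group, stood at 572, 488 and 700 CPM against 216, 243 and 157 CPM (1.29 ± 0.29, adjusted p 0.0023). miR-295-5p rose by 0.93 ± 0.19 (adjusted p 0.00123), miR-292a-3p by 0.75 ± 0.21 (adjusted p 0.0101) and miR-291a-5p by 0.73 ± 0.19 (adjusted p 0.00709). The remaining rises were those of miR-295-3p (0.58 ± 0.15, adjusted p 0.00789) and miR-290a-5p (0.49 ± 0.16, adjusted p 0.0257). For each of these 7, all Dnmt-null libraries were above all control libraries. This also held for miR-293-3p, which with 0.26 ± 0.16 did not pass (adjusted p 0.229). Among all miRNAs tested, 46.6% did not overlap between these groups. Of all 652 miRNAs tested, 16.4% were called higher and 33.7% in either direction, and the members' median was 0.74, beside -0.19 over all miRNAs.

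Cell-type markers moved with this rise. The epiblast markers summed to 105333 to 164935 CPM in Dnmt-null and 202279 to 212606 CPM in control, and 4 of 5 passed as lower. The trophoblast markers summed to 3370 to 7242 CPM in Dnmt-null and 1478 to 1937 CPM in control, and 4 of the 5 tested passed as higher, with miR-467b-3p at 0 in all 6 libraries. Also, 2 of 4 endoderm markers were higher, and 1 of the 3 mesenchyme or decidua markers tested was lower, with sums of 7.33 to 61.5 CPM in Dnmt-null and 232 to 396 CPM in control. In E7.5 control Exe the trophoblast sum was 30652 to 40480 CPM. The part of Exe or other trophoblast cells in the rise of the members was not tested.

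The rise in Dnmt-null E7.5 Epi was also measured against the partial mutants. Against Dnmt1-KO, 5 members were higher in Dnmt-null: miR-292a-5p (1.36 ± 0.18, adjusted p 0.000163), miR-295-5p (1.05 ± 0.18, adjusted p 0.00109), miR-292a-3p (0.94 ± 0.19, adjusted p 0.00419), miR-291a-5p (0.73 ± 0.17, adjusted p 0.0121) and miR-290a-5p (0.72 ± 0.15, adjusted p 0.00455). The background was 5.06% of all miRNAs called higher and 10.9% in either direction. Against Dnmt3a/3b-DKO, 3 members were higher: miR-292a-5p (0.82 ± 0.18, adjusted p 0.00516), miR-291a-5p (0.58 ± 0.17, adjusted p 0.031) and miR-295-5p (0.53 ± 0.18, adjusted p 0.0477), with 6.6% called higher and 16.4% in either direction. The second count was 1 without Dnmt-null replicate 1, without Dnmt-null replicate 2 or without Dnmt3a/3b-DKO replicate 4, and 1 with the replicate number as a block. All of these comparisons use the same 3 Dnmt-null libraries.

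In Exe, loss of the 3 enzymes brought 1 member past the threshold at E7.5 and none at E6.5. miR-292a-5p stood at 9535, 10566, 8552 and 8683 CPM in Dnmt-null E7.5 Exe and 5437, 8160, 5124 and 5573 CPM in control (0.64 ± 0.19, adjusted p 0.0384), against 6.87% of all miRNAs called higher and 9.88% in either direction. This call was lost without E7.5 Exe control replicate 1, 3 or 4, without Dnmt-null replicate 1 or 2, with the replicate number as a block and with no filter on low counts, and the count was 2 without Dnmt-null replicate 4. The epiblast sum in E7.5 Exe was 17252 to 27413 CPM in Dnmt-null and 33368 to 45944 CPM in control. The blood sum was 16.6 to 33.8 against 66.1 to 207 CPM, and the trophoblast, endoderm and mesenchyme or decidua sums overlapped. The part of a change in cell make-up was not tested. In E6.5 Exe no member passed, with 0.532% of all miRNAs called and 2 members called by DESeq2. At an unadjusted p under 0.05 there were 5 members, all lower, beside 13.6% of all miRNAs. The lowest adjusted p there was that of miR-293-3p (-0.79 ± 0.24, adjusted p 0.0858).

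**Figure D3:**
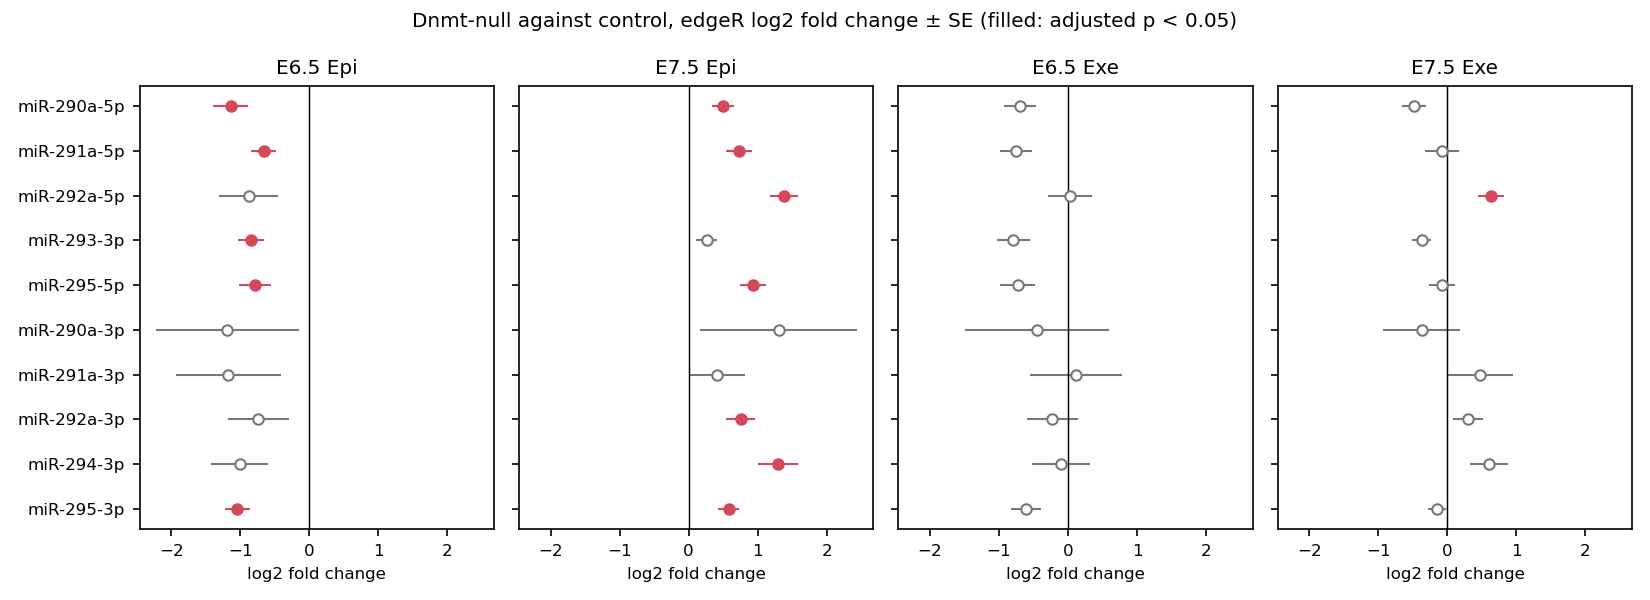
Log2 fold change of each member in Dnmt-null against control (x axis, with SE bars) in Epi and Exe at E6.5 and E7.5, from edgeR; filled red points passed at adjusted p under 0.05. The 5 filled points of E6.5 Epi lie between -1.14 and -0.66, the 7 of E7.5 Epi between 0.49 and 1.38, and Exe has 1 filled point, at 0.64.

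The opposite signs in Epi were compared directly. The Dnmt-null effect differed between E6.5 and E7.5 Epi for 8 members, with estimates of 1.42 (miR-293-3p) to 2.56 (miR-294-3p) higher at E7.5, a comparison added after the values were seen. The background was 10.1% of all miRNAs called and 7.69% called as higher at E7.5. The members' median was 1.94 and that of all miRNAs 0.59. With DESeq2-style size factors these were 1.48 and 0.13. The 2 members that did not pass, miR-290a-3p (2.80 ± 1.52, adjusted p 0.243) and miR-291a-3p (1.82 ± 0.94, adjusted p 0.223), were the least abundant. Without E6.5 Dnmt-null replicate 1 the count was 7, miR-292a-3p no longer passing (1.52 ± 0.53, adjusted p 0.0632), and miR-294-3p was at 2.30 ± 0.46. The trophoblast sum in Dnmt-null Epi overlapped control at E6.5 and was higher at E7.5 (3370 to 7242 against 1478 to 1937 CPM). The mesenchyme or decidua sum overlapped at E6.5 and was lower at E7.5 (7.33 to 61.5 against 232 to 396 CPM). The epiblast sum was lower at both stages. The part of these cells was not tested. Within Dnmt-null Epi, also compared after the values were seen, 0 members differed between E7.5 and E6.5 in edgeR, with 0 at an unadjusted p under 0.05, 0 in DESeq2 and 2.45% of all miRNAs called. The libraries of the stages overlapped for every member, while 8.74% of all miRNAs did not overlap, and the estimates ran from -0.72 ± 0.69 (miR-291a-3p) to 0.24 ± 0.24 (miR-290a-5p), with miR-295-3p at -0.11 ± 0.19. Without E6.5 Dnmt-null replicate 1 the count was again 0, with miR-295-3p at -0.31 ± 0.15 (adjusted p 0.376). In Dnmt-null Exe, 0 members differed between the stages in edgeR and 1 in DESeq2, with 1.11% of all miRNAs called; at an unadjusted p under 0.05 there was 1 member, miR-295-3p (-0.48 ± 0.16, adjusted p 0.129), beside 12.6% of all miRNAs. In Exe, the Dnmt-null effect differed between stages for 0 members, with 0 at an unadjusted p under 0.05, 0 in DESeq2 and 0.741% of all miRNAs called.

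Between tissues, the Dnmt-null effect at E7.5 was higher in Epi than in Exe for 5 members: miR-295-5p (1.25 ± 0.28, adjusted p 0.00405), miR-290a-5p (1.22 ± 0.26, adjusted p 0.00296), miR-292a-5p (0.99 ± 0.30, adjusted p 0.0375), miR-295-3p (0.97 ± 0.22, adjusted p 0.00521) and miR-293-3p (0.87 ± 0.23, adjusted p 0.012). The background was 5.91% called as higher and 7.01% called in all, and the count was 3 without E7.5 Epi control replicate 3 and without E7.5 Epi Dnmt-null replicate 2. At E6.5 it was 0 members, with 1 at an unadjusted p under 0.05 (13.1% of all miRNAs), 0 in DESeq2 and 0% of all miRNAs called, and it was again 0 without E6.5 Epi Dnmt-null replicate 1. Between Dnmt-null Exe and Dnmt-null Epi at E7.5, a comparison added later, 3 members were higher in Exe, namely miR-292a-3p (0.66 ± 0.23, adjusted p 0.0434), miR-292a-5p (0.62 ± 0.21, adjusted p 0.0362) and miR-295-3p (0.57 ± 0.16, adjusted p 0.00946), against 9.75% called higher and 19.5% in either direction. That count was 5 without Dnmt-null Exe replicate 2, 1 without Dnmt-null Epi replicate 1 or 2 and 0 without Dnmt-null Epi replicate 3. At E7.5 the trophoblast sum in Epi was 3370 to 7242 CPM in Dnmt-null and 1478 to 1937 CPM in control. In Exe it was 23715 to 41870 CPM in Dnmt-null and 30652 to 40480 CPM in control. The part of other cells in these differences between tissues was not tested.

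AG-haESCs differed from embryos in which members led. In WT AG-haESCs miR-292a-5p was the most abundant member, at 68696, 67429 and 69374 CPM and 28.2% ± 0.275 of the cluster's counts (n = 3), followed by miR-293-3p at 22.1% ± 0.968, miR-295-3p at 21.9% ± 0.707 and miR-290a-5p at 10.1% ± 0.0593. In E6.5 control Epi, miR-295-3p led with 37.7% ± 1.19 (n = 4), then miR-293-3p with 22.4% ± 0.702 and miR-291a-5p with 16.8% ± 1.56, while miR-292a-5p made up 8.63% ± 1.69. In E7.5 control Epi, miR-295-3p with 32.6% ± 0.850 and miR-293-3p with 31.2% ± 0.561 (n = 3) were nearly level. The ratio of miR-292a-5p to miR-291a-5p summarised this, at 3.84 to 3.98 in WT, 4.12 to 4.30 in O48 and 4.04 to 4.34 in 408 cells. It was 0.205 to 0.239 in E7.5 control Epi and 0.284 and 0.428 in the libraries labelled Mir-6KO. SC E6.5 WT replicate 3 had a ratio of 2.56, and the other 2 libraries of that group had at most 0.512. The ratios of the labelled Mir-6KO libraries were thus in the range of embryos. Their epiblast markers lay above those of every embryo library, the highest of which was SC E7.5 control replicate 3 with 220309 CPM. The ratio of SC E6.5 WT replicate 3 lay between embryos and AG-haESCs.

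**Figure D4:**
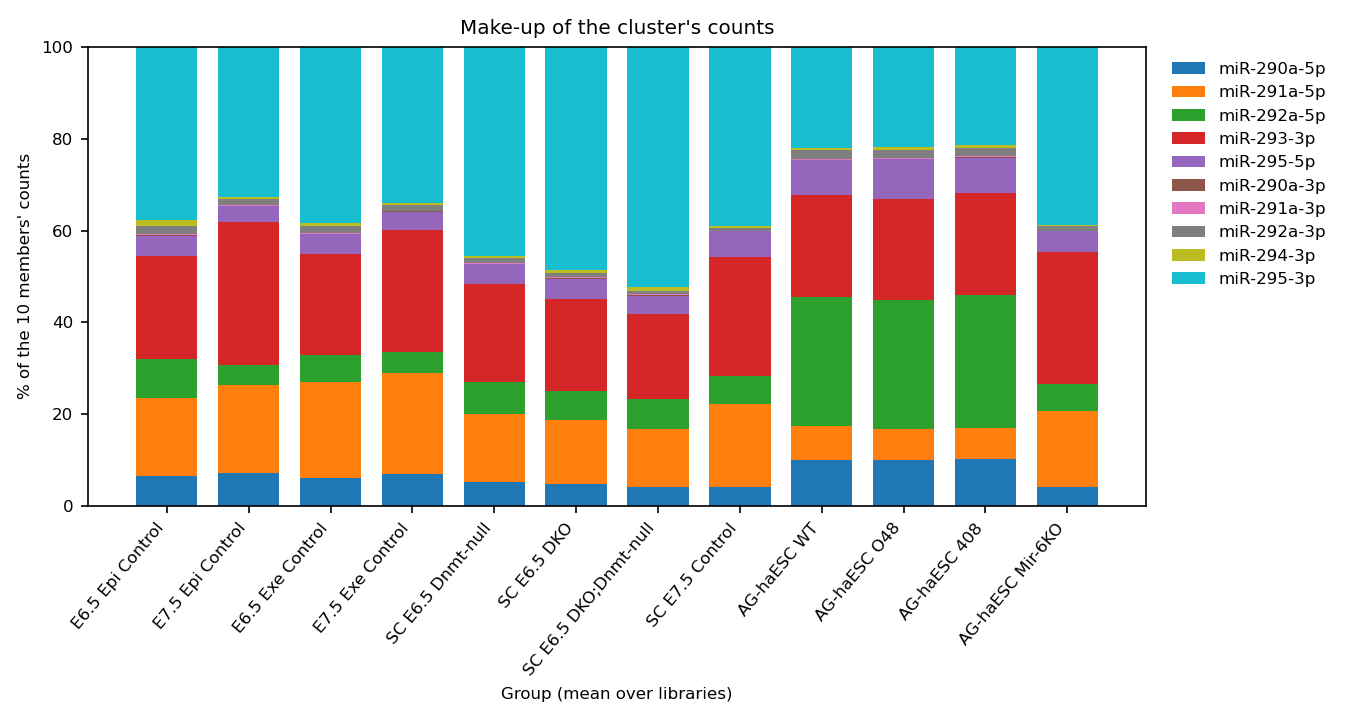
Share of each member in the cluster's counts (y axis, percent, mean over libraries) in control embryos, SC embryos and AG-haESCs (x axis). miR-292a-5p takes 28.2% in WT AG-haESCs and 4.28% in E7.5 control Epi, and miR-295-3p takes 21.9% and 32.6%.

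O48 cells held more of the cluster than WT cells; the DMR deletions and other differences between the lines cannot be told apart. miR-295-3p stood at 61053, 70008 and 60138 CPM in O48 and 53687, 54179 and 51838 CPM in WT (0.40 ± 0.08, adjusted p 0.00714), and miR-293-3p at 59450, 67892 and 65583 against 56436, 50308 and 54574 CPM (0.40 ± 0.10, adjusted p 0.0243). These 2 members passed, against 4.07% of all miRNAs called higher and 15.7% in either direction. The fit included the libraries labelled Mir-6KO. Without them, an alternative chosen after the data were seen, 6 members passed: miR-290a-5p, miR-291a-5p, miR-292a-5p, miR-293-3p, miR-295-3p and miR-295-5p. Estimates ran from 0.29 ± 0.07 for miR-291a-5p to 0.58 ± 0.09 for miR-295-5p, with 0.40 ± 0.06 for miR-295-3p. The shares of 4.07% and 15.7% belong to the fit with those libraries. For the fit without them no share over all miRNAs is given, so the 6 has no background. Leaving out O48 replicate 2, O48 replicate 3, WT replicate 2 or WT replicate 3 each brought the count to 1 in the fit with the Mir-6KO libraries. The 408 cells had miR-295-3p at 51376, 52752 and 53913 CPM and miR-292a-5p at 73858, 72115 and 69135 CPM.

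Compared with WT AG-haESCs, WT SC embryos at E6.5 held less of 7 members. miR-292a-5p stood at 6864, 4701 and 7190 CPM in the embryos and at 68696, 67429 and 69374 CPM in the cells (-3.99 ± 0.32, adjusted p 0.000272). Next came miR-290a-5p (-3.53 ± 1.02, adjusted p 0.0291), miR-295-5p (-3.24 ± 0.50, adjusted p 0.0022), miR-292a-3p (-3.21 ± 0.48, adjusted p 0.00215) and miR-291a-3p (-2.80 ± 0.35, adjusted p 0.00138); miR-293-3p and miR-294-3p fell by 2.66 and 2.33 on the log2 scale. The background was 21.9% of all miRNAs called lower and 39.3% in either direction, with a median of -2.73 for the members and -0.28 for all. Without SC E6.5 WT replicate 3, 9 members were lower, all but miR-290a-3p, and 50.1% of all miRNAs were called. miR-295-3p then differed by -0.85 ± 0.06, since the other 2 embryo libraries had 46400 and 44769 CPM and replicate 3 had 2575 CPM.

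Against natural control Epi at E6.5, all 10 members were lower in all WT SC libraries than in all Epi libraries, where 26.1% of all miRNAs did not overlap in either direction. The test called 2 members lower, miR-294-3p (-1.93 ± 0.35, adjusted p 0.0316) and miR-292a-3p (-1.81 ± 0.40, adjusted p 0.0415), with 1.2% of all miRNAs called lower and 4.32% in either direction. Without SC E6.5 WT replicate 3 there were 5, adding miR-290a-5p, miR-292a-5p and miR-293-3p, and 8.96% of all miRNAs were called. Both calls were lost with the replicate number as a block, without SC E6.5 WT replicate 1 or 2 and without E6.5 Epi control replicate 2, 3 or 4, and 1 was left without E6.5 Epi control replicate 1.

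Among SC embryos at E6.5, no member passed the test of Dnmt-null or DKO against WT. The counts were 0 with edgeR, 0 at an unadjusted p under 0.05 and 0 with DESeq2 in both, against 1.52% and 0.217% of all miRNAs called. In both, 9 of 10 estimates were above 0. The members' median was 0.26 in Dnmt-null and 0.63 in DKO, beside 0.06 and 0.10 over all miRNAs. For DKO 5 members did not overlap WT, beside 32.1% of all miRNAs, and for Dnmt-null 0, beside 24.3%. These tests held SC E6.5 WT replicate 3. Without it the counts were again 0, with 0 and 1 members at an unadjusted p under 0.05 and 10.9% and 0.99% of all miRNAs called. The medians were then -0.12 and 0.29, beside -0.01 and 0.07 over all, and miR-295-3p differed by -0.27 ± 0.17 in Dnmt-null and 0.25 ± 0.17 in DKO. DKO;Dnmt-null embryos, whose libraries are in a second deposited table, had 4 members lower than DKO embryos: miR-292a-3p (-0.33 ± 0.10, adjusted p 0.0141), miR-290a-5p (-0.31 ± 0.09, adjusted p 0.00927), miR-295-5p (-0.27 ± 0.08, adjusted p 0.0141) and miR-291a-5p (-0.26 ± 0.08, adjusted p 0.0187). The background was 16.4% called lower and 35.3% in either direction, and the count was 2 without DKO;Dnmt-null replicate 3. As this group is the whole second table, table and genotype cannot be told apart. In the same comparison 5 of 5 epiblast markers were lower (sum 130119 to 147052 CPM, against 177971 to 196784 CPM in DKO). All 4 endoderm markers, both blood markers tested and 2 of 5 trophoblast markers tested were higher, beside 18.9% of all miRNAs called higher. The part of these cells was not tested. At E7.5, no member passed in edgeR or DESeq2 between Mir-6KO;Dnmt-null and control SC embryos, with 3.08% of all miRNAs called. At an unadjusted p under 0.05 there was 1 member, beside 12.3% of all miRNAs. That member, miR-295-5p, stood at 4705, 2992 and 3349 CPM against 2438, 2046 and 2290 CPM in control, which did not overlap (0.45 ± 0.18, adjusted p 0.353).

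Of the paired arms, the 5p arm gave most of the counts in miR-290a, miR-291a and miR-292a and the 3p arm in miR-295. The 5p share of miR-292a was 82.7% ± 0.950 in E6.5 control Epi (n = 4), 75.8% ± 1.53 in E7.5 control Epi (n = 3), 82.9% ± 0.655 in E7.5 Dnmt-null Epi (n = 3) and 93.9% ± 0.101 in WT AG-haESCs (n = 3). The 5p share of miR-295 was 10.5% on average in E6.5 control Epi and 25.8% ± 0.619 in WT AG-haESCs. Over 40 two-sided exact permutation tests of these shares, none had an adjusted p under 0.05 and the lowest adjusted p was 0.327. For 3 against 4 libraries the test cannot go below 0.0571, which is what the stage change of miR-292a in control Epi gave.

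The miRNAs with a related AAGUGC seed outside the cluster, 4 of the miR-302 family and 6 of the miR-17 family, did not share the cluster's tissue pattern. Of these 10, 9 were lower in control Exe than in Epi and 0 higher, at E6.5 and again at E7.5, beside 15.4% and 10.9% of all miRNAs called lower. With stage in control Epi 2 were lower, close to the 17% of all miRNAs, and in control Exe 3 were higher, beside 10% of all. In Dnmt-null against control, 4 were lower in Epi at E6.5 and 7 at E7.5, beside 4.65% and 17.3% of all miRNAs called lower, while Exe had 2 lower at E7.5, beside 3.02% of all; 0 were higher in any of these. miR-302b-3p, a hallmark of the primed epiblast, stood at 158757 ± 28412 CPM in E6.5 control Epi (n = 4) and 20634 ± 5975 CPM in E6.5 control Exe (n = 4), a log2 difference of -3.01 ± 0.20 (adjusted p 6.89e-09). At E7.5, where 7 cluster members rose in Dnmt-null Epi, miR-302b-3p fell by 0.90 on the log2 scale (SE 0.15, adjusted p 0.000176). Its level was 1114 ± 381 CPM in O48 and 3570 ± 142 CPM in WT AG-haESCs (n = 3 each; -1.54 ± 0.18, adjusted p 0.000169). miR-20a-5p, of the miR-17 family, was lower in Exe than in Epi by -1.92 ± 0.45 at E6.5 (adjusted p 0.00376) and in WT SC embryos than in WT AG-haESCs by -2.22 ± 0.45 (adjusted p 0.00706). The miR-302 miRNAs are in both this list and the epiblast marker list.

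The table lists 8 more mature miRNAs of the locus, 4 of which are the opposite-strand entries. Those 4 nearly copy the counts of members and so repeat their results. Of the 8, 7 were higher in E7.5 control Exe than Epi, beside 22.2% of all miRNAs tested. With stage 7 fell in control Epi, beside 17%, and 3 in control Exe, beside 4.3%. In Dnmt-null E7.5 Epi 6 were higher, beside 16.4%. In Dnmt-null E6.5 Epi 1 of the 7 tested was lower, beside 4.65%, and in Dnmt-null E7.5 Exe 1 was higher, beside 6.87%.

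Across the 25 groups of the main table, the miRNAs whose mean level followed that of the members most closely were miR-292b-5p, miR-290b-3p, miR-294-5p, miR-292b-3p and miR-672-5p, among 290 candidates with a mean of at least 100 CPM. Pearson's r of the group means of log2(CPM + 1) was 0.962, 0.958, 0.904, 0.901 and 0.839, given as a description, since all of these miRNAs were counted in the same libraries. miR-292b-5p, miR-290b-3p and miR-292b-3p are opposite-strand entries, and miR-294-5p is the other arm of the Mir294 hairpin. miR-672-5p, the only one from another locus, had r = 0.795 without the libraries labelled Mir-6KO and 0.710 over the 21 groups without AG-haESCs.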

How the data were processed

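The authors prepared small RNA libraries with Cas9-assisted small RNA sequencing from 100 pg of total RNA; no molecular identifiers are described. Reads were trimmed with fastp 0.20.1 to 15 to 40 nt, aligned to GRCm38 with Bowtie 1.2.1.1 and counted by the authors on mature miRNAs of miRBase 21 with a tolerance of 2 nt at the 3′ end; a strand setting is not given in the sources used here. The deposited counts are raw, in a main table of 1504 miRNAs and 88 libraries and a second of 895 miRNAs and 3 libraries. An earlier copy of the main table was not used, and 2 of its columns match no column of the main table.

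Counts were tested with edgeR 4.0.16 in R 4.3.3 (quasi-likelihood, TMM, filterByExpr with a count minimum of 10), with adjusted p under 0.05 as the threshold. One fit held the genotypes of a tissue and stage, the AG-haESC groups, or the SC groups; fits across the 2 tables used shared entries. Every member is named, with up to the 5 largest changes in full where it passed. The members and lists were chosen with earlier results of these data known. Replicates of a group were compared in 118 pairs, and none was a copy. Alternatives were other scaling, no filter, DESeq2 1.42.0, the study's thresholds, the replicate number as a block, libraries left out, and, chosen after seeing the data, removal of copied or opposite-strand entries and of the libraries labelled Mir-6KO. Of 28 comparisons checked, same-numbered samples deviated together (every correlation over 0.1) in 2, Dnmt-null against control in E6.5 Epi and DKO against WT SC embryos; the numbers come from the sample titles, and the block changed neither count. Arm shares were tested with SciPy 1.17.1. The scripts were tested on simulated data.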

Additional observations from a re-analysis of the deposited data

Results flagged for a closer look

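Of 210 sets of 4 libraries examined for 1 library far from the others (Dixon's criterion, which chance meets in about 1 of 20), 10 met it. In E6.5 Exe Dnmt-null, replicate 4 had miR-295-5p at 8208 CPM, the others at 5709 to 6033. In E6.5 Epi control, replicate 2 had a cluster share of 15.9%, the others 14.3 to 14.6%. In E6.5 Epi Dnmt1-KO, replicate 4 had miR-295-5p at 6082 CPM, the others at 4827 to 4977, and replicate 3 had a 5p share of miR-292a of 84.2%, the others 81.9 to 82.0%. In E6.5 Epi Dnmt-null, replicate 1, the shallowest library, had miR-295-5p at 2807 CPM, the others at 4530 to 4726.

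In E7.5 Exe control, replicate 2 had miR-292a-5p at 8160 CPM, the others at 5124 to 5573, and miR-292a-3p at 2079 CPM, the others at 1467 to 1544. In E7.5 Exe Dnmt-null, replicate 4 had miR-291a-5p at 38809 CPM, the others at 20666 to 23677. In E7.5 Epi Dnmt3a/3b-DKO, replicate 1 had 5p shares of 80.4% for miR-292a and 12.7% for miR-295, the others 75.2 to 75.6% and 9.44 to 9.88%.

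Effects that differed between groups by the test of the difference were the tissue difference between stages in controls, for 9 members, the Dnmt-null effect between tissues at E7.5, for 5 members, and the Dnmt-null effect between stages in Epi, for 8 members.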

How the results depend on the processing

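Of 33 counts of members called, 15 kept within 1.5 times of the reported count under every setting, and no called value of a single member changed sign: of 88 called values, the other settings gave 590 values on the same side of the threshold and 28 past it no longer, and libraries left out gave 648 and 125. Low members such as miR-290a-3p are limited by depth at E6.5, where 3 counts reached 66.3 CPM. The cause of the following shifts was not tested.

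With the study's thresholds (unadjusted p under 0.05 and a log2 change over 0.5), the counts are given with the share of all miRNAs past them. Exe against Epi at E6.5 had 1 (39.6%). In E6.5 Exe, Dnmt3a/3b-DKO had 5 (9.04%) and Dnmt-null 5 (13%). Dnmt3a/3b-DKO in Epi had 2 at E6.5 (14.9%) and 2 at E7.5 (17.8%). Dnmt-null in E7.5 Exe had 2 (19.4%), Dnmt-null against Dnmt1-KO 8 (20.1%) and O48 1 (21.4%). DKO;Dnmt-null had 0 (31%) and WT SC against Epi 7 (21.8%). The Dnmt-null effect between tissues had 1 at E6.5 (13.1%) and 8 at E7.5 (16.5%). Exe against Epi in E7.5 Dnmt-null had 5 (29.9%). Over all comparisons 7.41 to 47.1% of all miRNAs passed these thresholds. With no filter on low counts the numbers of members called were 1 for Exe against Epi at E6.5 and 0 for Dnmt-null in E7.5 Exe. They were 1 for Dnmt1-KO and 1 for Dnmt3a/3b-DKO in E7.5 Epi, 5 for Dnmt-null against Dnmt3a/3b-DKO and 5 for O48. The effect between tissues at E7.5 had 3, and Exe against Epi in E7.5 Dnmt-null had 6. DESeq2 gave 2 for Dnmt-null in E6.5 Exe, 8 against Dnmt1-KO, 6 against Dnmt3a/3b-DKO, 5 for O48, 5 for Exe against Epi in E7.5 Dnmt-null and 1 for stage in Dnmt-null Exe. TMM without the members gave 1 for Dnmt1-KO in E7.5 Epi, 4 for O48 and 6 for Exe against Epi in E7.5 Dnmt-null, and DESeq2-style size factors gave 5 for O48. Collapsing identical entries gave 1 for Exe against Epi at E6.5, 1 for Dnmt1-KO in E7.5 Epi and 5 for Exe against Epi in E7.5 Dnmt-null. Removing opposite-strand entries gave 1 for Dnmt1-KO in E7.5 Epi, 3 for the effect between tissues at E7.5 and 6 for Exe against Epi in E7.5 Dnmt-null. Without the libraries labelled Mir-6KO, O48 had 6. For the settings other than the study's thresholds, the share of all miRNAs called is not given here. Those counts show only how the number of members called depends on the setting.

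With the replicate number as a block, the counts were 0 for Dnmt-null in E7.5 Exe, 1 for Dnmt-null against Dnmt3a/3b-DKO and 0 for WT SC against Epi; no other count moved by over 1.5 times. In these 3 comparisons the samples share only a number.

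With 1 library left out at a time, the counts ranged from 1 to 5 for Exe against Epi at E6.5, 2 to 9 for the tissue difference between stages, 0 to 1 for Dnmt3a/3b-DKO in E6.5 Exe, 3 to 5 for Dnmt-null in E6.5 Epi, 0 to 2 in E7.5 Exe, 0 to 1 for Dnmt1-KO in E7.5 Epi, 1 to 4 for Dnmt-null against Dnmt3a/3b-DKO, 1 to 2 for O48, 2 to 6 for DKO;Dnmt-null, 0 to 5 for WT SC against Epi, 3 to 6 for the effect between tissues at E7.5 and 0 to 5 for Exe against Epi in E7.5 Dnmt-null.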
